A study of Mus musculus with 24 samples.

Results

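UDP-glucuronosyltransferases were followed in the mRNA of dispersed mouse pancreatic islet cells. They were represented by 9 genes, Ugt1a1, Ugt1a2, Ugt1a5, Ugt1a6a, Ugt1a6b, Ugt1a7c, Ugt1a9 and Ugt1a10 of the Ugt1a cluster and Ugt2b34, taken by gene symbol from the 41549 genes of the deposited table. The islet cells came from wild type mice, per the study's methods male and female C57BL/6NRj animals of 12 to 14 weeks. All 24 libraries came from cells transfected with 50 pmol of an antisense oligonucleotide (ASO), either a control (Ctr) or one directed against the 5' fragment of tRNA-Glu(CTC) (αGlu). Cells were then kept for 48 h in 0.75% bovine serum albumin (BSA) alone or in 0.5 mM palmitate (PA), a saturated fatty acid, bound to BSA. This gave 4 groups (Ctr BSA, Ctr PA and the same treatments with αGlu) of 6 libraries, with 3 libraries of each group in either of 2 batches, and the labels do not say what a batch is. Every group therefore carried a transfection, and cells without any ASO were not analysed here.

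UDP-glucuronosyltransferases sit in the membrane of the endoplasmic reticulum and transfer glucuronic acid from UDP-glucuronate to lipophilic compounds, which makes these water-soluble and ready for export. They are best known from liver, intestine and kidney, where they clear bilirubin, steroids, bile acids, phenols and drugs. In the Ugt1a cluster each gene has a promoter and a first exon of its own, which codes for the substrate-binding part of the enzyme, and all first exons are spliced to the same downstream exons, which code for the part that binds UDP-glucuronate. Ugt2b34 belongs to the Ugt2b subfamily, whose genes share no exons with the Ugt1a cluster.

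Where the reads of a Ugt1a row can come from is set by this arrangement. In GENCODE vM21 (GRCm38, plus strand) the 8 Ugt1a members lie between positions 88055388 and 88220002 of chromosome 1, and 4 exonic stretches of 1311 bases in sum, from 88215044 to 88218997, are shared by all 8. Only 39.4% (Ugt1a6b) to 49.7% (Ugt1a6a) of the exonic bases of a member belong to no other member. The map of the exons shows this. Ugt2b34 lies on the minus strand of chromosome 5 at 86889767 to 86906937 and has all 4312 of its exonic bases to itself.

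**Figure D1:**
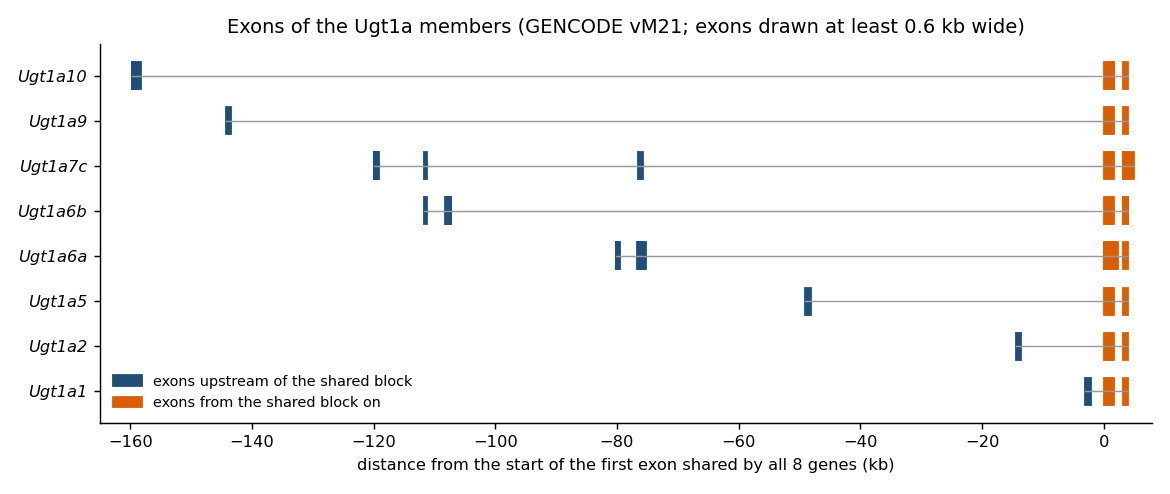
Exons of the 8 Ugt1a members along the locus, as distance in kb from the start of the first exon they all share; blue marks exons upstream of that point and orange those from it on. The first exons that join the shared block end between 2.2 kb (Ugt1a1) and 158.7 kb (Ugt1a10) upstream of it, and Ugt1a7c is drawn with upstream exons that Ugt1a6b and Ugt1a6a also use.

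The junctions between each first exon and the shared exons are printed below from the GENCODE transcripts, because a read that crosses them is one that can tell the rows apart. The last 21 bases of the first exon are in lower case and the first 21 bases of the shared exon in capitals.
Ugt1a10: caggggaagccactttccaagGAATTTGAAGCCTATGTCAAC
Ugt1a9: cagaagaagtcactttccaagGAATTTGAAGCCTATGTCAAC
Ugt1a7c: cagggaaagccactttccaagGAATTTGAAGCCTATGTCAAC
Ugt1a6b: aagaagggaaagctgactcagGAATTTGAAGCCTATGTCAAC
Ugt1a6a: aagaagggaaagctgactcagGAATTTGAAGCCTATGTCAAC
Ugt1a5: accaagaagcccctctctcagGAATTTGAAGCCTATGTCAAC
Ugt1a2: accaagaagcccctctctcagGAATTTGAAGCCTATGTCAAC
Ugt1a1: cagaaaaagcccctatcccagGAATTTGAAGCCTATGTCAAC
Those of Ugt1a6a and Ugt1a6b were identical, as were those of Ugt1a2 and Ugt1a5. Over the whole first exon, Ugt1a6a and Ugt1a6b were identical at 96.5% of 938 aligned bases and Ugt1a9 and Ugt1a10 at 91.8% of 879, whereas Ugt1a1 was identical to the other members at 70.7% to 73.7%. Gene lengths implied by the deposited counts and TPM values had, to 3 digits, the same ratios to Ugt1a9 as the GENCODE lengths for the other 8 members. The sources used here do not state how reads in shared exons were divided between rows. The single Ugt1a rows, above all Ugt1a6b, Ugt1a10, Ugt1a2 and Ugt1a5, are therefore uncertain, and the sum of the 8 rows is given beside them.

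Promoter windows of 300 bases around the start site (RefSeq, GRCm38.p6, coding strand) were found for 8 members, and Ugt1a6b had no entry. The windows of the members with the largest fitted rise in PA averaged over both ASOs (Ugt1a1 and Ugt1a9), of the most abundant Ugt1a member (Ugt1a6a) and of a close copy of the Ugt1a9 window (Ugt1a10) are printed, with every HNF1 core motif in capitals (GTTAAT or its reverse complement ATTAAC). HNF1 is a liver and islet transcription factor known to act at UGT1A promoters.
Ugt1a9: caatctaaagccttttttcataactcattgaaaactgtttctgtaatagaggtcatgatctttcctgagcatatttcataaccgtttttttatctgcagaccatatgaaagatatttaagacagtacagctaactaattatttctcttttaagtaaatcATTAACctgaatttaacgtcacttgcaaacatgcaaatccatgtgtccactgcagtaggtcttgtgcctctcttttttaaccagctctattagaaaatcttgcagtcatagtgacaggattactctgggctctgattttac
Ugt1a1: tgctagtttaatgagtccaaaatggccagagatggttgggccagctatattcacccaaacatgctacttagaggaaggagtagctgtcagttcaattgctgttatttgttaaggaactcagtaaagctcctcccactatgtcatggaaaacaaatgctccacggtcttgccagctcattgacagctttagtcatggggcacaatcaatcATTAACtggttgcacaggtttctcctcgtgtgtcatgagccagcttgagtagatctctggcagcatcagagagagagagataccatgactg
Ugt1a6a: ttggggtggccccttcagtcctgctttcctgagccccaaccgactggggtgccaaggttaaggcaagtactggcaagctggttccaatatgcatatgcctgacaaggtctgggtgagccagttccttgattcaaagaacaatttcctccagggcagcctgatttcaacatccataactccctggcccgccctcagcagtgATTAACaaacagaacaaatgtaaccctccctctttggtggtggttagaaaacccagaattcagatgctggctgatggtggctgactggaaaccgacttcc
Ugt1a10: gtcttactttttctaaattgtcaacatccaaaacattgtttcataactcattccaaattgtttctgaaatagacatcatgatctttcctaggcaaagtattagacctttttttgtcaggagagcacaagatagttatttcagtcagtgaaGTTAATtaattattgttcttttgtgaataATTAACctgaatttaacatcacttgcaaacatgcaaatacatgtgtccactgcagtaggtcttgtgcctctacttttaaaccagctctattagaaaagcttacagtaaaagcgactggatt
They cover chr1:88070529-88070828, chr1:88211709-88212008, chr1:88134559-88134858 and chr1:88055161-88055460, in the same order. This motif stood in the windows of 4 of the 8 members, at -91 in Ugt1a9, -41 in Ugt1a1, -50 in Ugt1a6a and at 2 places in Ugt1a10, counted from the start site to the first base of the match. Of all 32851 promoter windows 7.1% held one. The Ugt1a6a window lies at an upstream exon of 127 bases that starts at 88134809. The Ugt1a6a first exon whose junction is printed above starts further downstream, at 88138378. The nuclear receptor core motif AGGTCA, on either strand, was found in 2 members, at -201 in Ugt1a9 and -242 in Ugt1a7c, against 16.3% of all windows. The antioxidant response element core TGACNNNGC was found in 0 of the 8 windows (12.4% of all), and the dioxin response element core GCGTG in 1, that of Ugt1a5 (32.4% of all).

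Sequencing depth was 18214719 to 35001979 counts per library (median 26701201.5). Markers of beta-cells were abundant in every library, at a summed level of 83830 to 151600 CPM (counts relative to library size), and those of alpha, delta and PP cells stood at 9799 to 25880 CPM. Markers of other cells moved with PA, and those of several cell types fell. In the PA response averaged over both ASOs 6 of 6 tested fibroblast and stellate markers, 6 of 8 acinar, 6 of 8 ductal, 5 of 7 alpha, delta and PP, 3 of 7 macrophage and 2 of 7 endothelial markers were lowered and none of these raised. Of all genes tested 45.4% were called in this comparison and 23.4% were raised. Beta-cell markers had 3 of 9 raised and 3 lowered. Schwann and glial markers had 0 of 5 called by edgeR, with 1 at an unadjusted p below 0.05. Schwann and glial markers did differ between the ASOs. For αGlu against Ctr averaged over both treatments 4 of 5 were lowered and 0 raised (median log2 -2.73), where 0.239% of all genes were called. Of the macrophage markers 4 of 7 were lowered in Ctr cells (median log2 -2.13), where 14.5% of all genes were lowered. In αGlu cells 1 of 7 was lowered (median -0.22), against 14.2% of all genes. The difference between both PA responses was called for 0 of these 7 by edgeR (median 0.66). At an unadjusted p below 0.05 there were 3, where 2.09% of all genes passed. The summed level of the macrophage markers was 81.5 to 343 CPM in Ctr BSA and 84.8 to 129 CPM in Ctr PA, and 91.5 to 170 and 82.8 to 138 CPM in αGlu cells. The 8 ductal genes summed to 362 to 647 CPM in Ctr BSA and 288 to 564 CPM in Ctr PA, and to 406 to 634 and 402 to 541 CPM in αGlu cells. The 7 fibroblast and stellate genes summed to 67.2 to 416 CPM in Ctr BSA and 6.90 to 42.7 CPM in Ctr PA, and to 39.5 to 931 and 4.38 to 159 CPM in αGlu cells. The 8 acinar genes summed to 327 to 15740 CPM in Ctr BSA (median 2499) and 169 to 5881 CPM in Ctr PA (median 1280). In αGlu cells they summed to 384 to 9570 CPM (median 2062) and 246 to 5111 CPM (median 1221). These wide ranges were split by batch, with 8 of 8 acinar markers lower in batch 2 (median log2 -4.37), as 25.4% of all genes were. Liver and intestine are rich in these enzymes. The 6 hepatocyte genes summed to 23.95 to 52.1 CPM in Ctr BSA and 42.01 to 77.7 CPM in Ctr PA, with 1 of 5 tested genes raised and Alb at a log2 fold change of -0.02 ± 0.21 (SE), and to 29 to 53.3 and 38.3 to 77.4 CPM in αGlu cells. The 5 intestinal genes summed to 87.5 to 149 CPM in Ctr BSA and 133 to 169 CPM in Ctr PA, and to 101 to 143 and 139 to 178 CPM in αGlu cells, with 1 of 2 tested genes raised. Of all genes 15.5% were raised by PA in Ctr cells and 14.4% in αGlu cells. None of the markers of these lists was at 0 in all 24 libraries. The part of these cells in the results that follow was not tested, and in bulk RNA fewer cells of a type and less RNA per cell cannot be told apart.

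Per unit of length (TPM, the length-scaled share of a library's transcripts, as deposited), Ugt2b34 and Ugt1a6a were the leading members in Ctr BSA cells. The lengths behind TPM had the ratios of the merged exons of all transcripts of a gene, 4312 bases for Ugt1a6a. Its transcript whose junction is printed above has 2265 bases, so TPM may understate Ugt1a6a against other members. Ugt2b34 stood at 66.3 ± 17.5 TPM (SD, n = 6), rank 1492 of 22702 genes with a count, and Ugt1a6a, an enzyme for small planar phenols, at 48.5 ± 11.4 TPM, rank 2199. Their ranges overlapped (51.6 to 89.9 and 35.6 to 62.3 TPM), so their order was not separated by the spread. It depended on the batch: the ratio of Ugt2b34 to Ugt1a6a was 2.02 ± 0.283 over the 12 libraries of batch 1 and 1.15 ± 0.193 over those of batch 2, where it was above 1 in 8 of 12.

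Next came Ugt1a9, known for the conjugation of bulky phenols, at 10.1 ± 3.04 TPM and Ugt1a7c at 3.17 ± 0.941 TPM, each apart from its neighbours in all 6 Ctr BSA libraries. Ugt1a1, the enzyme of bilirubin conjugation, was listed at 0.906 ± 0.532 TPM and was not separated from Ugt1a2 at 0.7276 ± 0.3995 TPM. Ugt1a5, Ugt1a6b and Ugt1a10 were lower still, at 0.307, 0.0854 and 0.0726 TPM. In Ctr PA cells the mean of Ugt1a1 was 5.27 ± 2.46 TPM and that of Ugt1a7c 3.86 ± 0.543 TPM. Their ranges overlapped (2.73 to 9.12 and 3.12 to 4.58 TPM). Ugt1a1 lay below Ugt1a7c in S15 (3.22 against 3.42 TPM) and S23 (2.73 against 4.58 TPM), both of batch 2, and above it in the other Ctr PA libraries.

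PA against BSA in Ctr cells asked how the islet cells respond to a fatty acid load. Of the 9 members 6 passed the filter on low counts (Ugt1a9, Ugt1a7c, Ugt1a6b, Ugt1a6a, Ugt1a1 and Ugt2b34), and 4 of these rose and 0 fell at an adjusted p below 0.05, where 15.5% of the 15916 genes tested were raised and 14.5% lowered. Those that rose were Ugt1a9, Ugt1a1, Ugt2b34 and Ugt1a6b. The median log2 fold change of the 6 was 0.99, beside 0.01 over all genes tested. By a second rule, a fold above 2 with an unadjusted p below 0.05, 3 members were raised (Ugt1a9, Ugt1a1 and Ugt1a6b), against 0.854% of all genes. This fold rule is a reading of the study's threshold, since its methods do not say there whether the p was adjusted. All CPM values below are scaled by TMM and serve to compare groups within a gene.

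Ugt1a9 was lowest at 4.34, in the median at 8.80 and highest at 11.3 CPM in the 6 Ctr BSA libraries, and at 14.6, 23.2 and 30.1 CPM in Ctr PA. All Ctr PA libraries lay above all Ctr BSA libraries. The fitted rise was 2.77-fold (log2 1.47 ± 0.17 SE, n = 6 per group, edgeR adjusted p = 6.4e-07). Taken alone, batch 1 gave 1.44 and batch 2 gave 1.48. Ugt1a1 ran from 0.212 over 0.773 to 1.21 CPM in Ctr BSA and from 2.40 over 3.52 to 7.18 CPM in Ctr PA, again without overlap. It rose 5.28-fold (log2 2.40 ± 0.35, edgeR adjusted p = 1.3e-05), by 2.82 in batch 1 and 1.93 in batch 2. Ugt1a1 rested on few reads, 6 to 44 per library in Ctr BSA and 67 to 197 in Ctr PA. The 2 were the members whose groups did not overlap, a separation in this direction that 2.97% of all tested genes had.

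**Figure D2:**
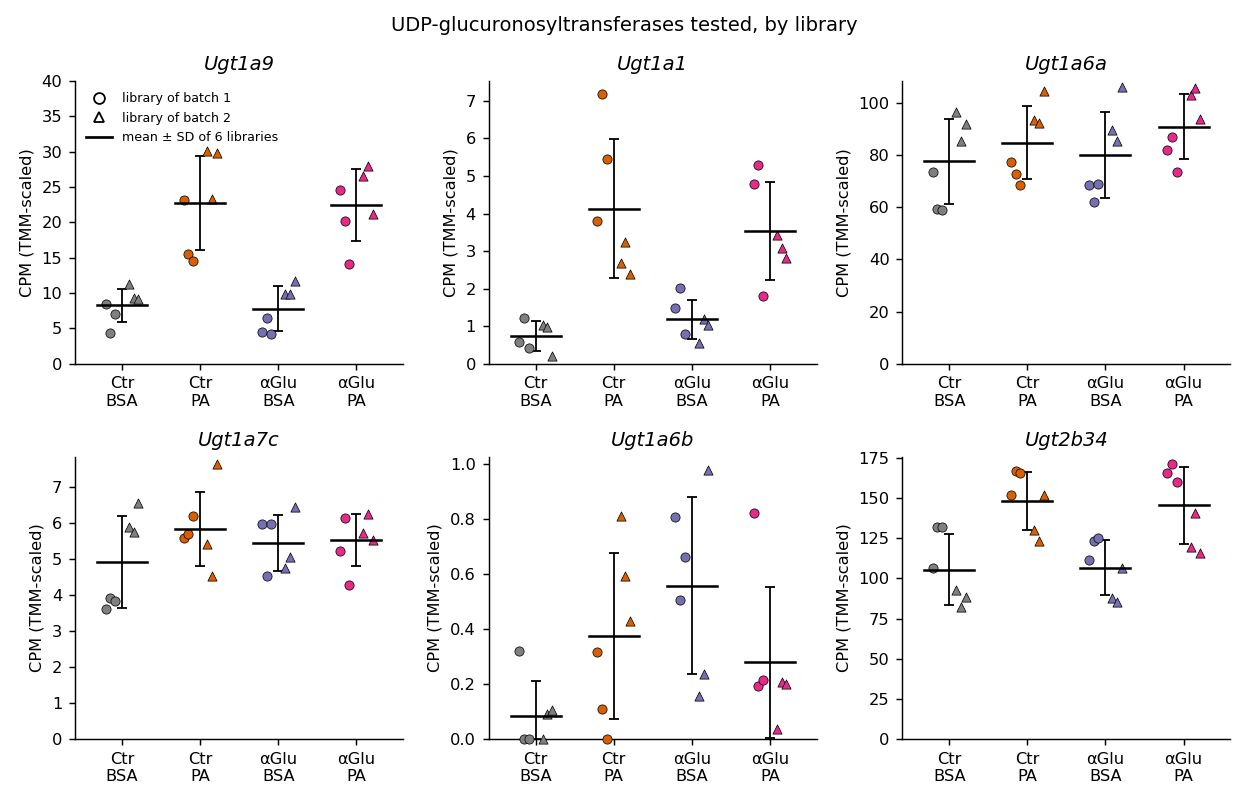
TMM-scaled CPM of the 6 tested members in each library (vertical axes, linear, from 0) by group; circles are libraries of batch 1, triangles those of batch 2, and bars the mean ± SD of 6 libraries. Ugt1a9 lies between 4.25 and 11.8 CPM in BSA and between 14.2 and 30.1 CPM in PA; Ugt2b34 and Ugt1a6a are split by batch within every group.

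Ugt2b34 ran from 82.1 over 99.5 to 132 CPM in Ctr BSA and from 124 over 152 to 167 CPM in Ctr PA. The groups overlapped, since the batch 1 libraries of Ctr BSA (106 to 132 CPM) reached those of batch 2 in Ctr PA (124 to 152 CPM), but within each batch they did not. Its rise was the smallest of the 4 and also the one with the smallest error, 1.42-fold (log2 0.51 ± 0.07, edgeR adjusted p = 9.1e-06). Batch 1 alone gave 0.38 and batch 2 alone 0.62.

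Ugt1a6b held 10 reads in all in the 6 Ctr BSA libraries, where 3 had none, and 62 in Ctr PA, where 1 had none. Its fitted log2 change of 2.35 had a wide error (SE 0.88) and an edgeR adjusted p of 0.046. The value was 0.87 in batch 1 (edgeR adjusted p = 0.74) and 3.12 in batch 2, and the call was kept only when S1, S4, S7, S11, S14, S16 or S22 was the library left out. Its row is also the one whose first exon is nearly that of Ugt1a6a.

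Ugt1a6a ran from 59.1 over 79.3 to 96.6 CPM in Ctr BSA and from 68.4 over 84.8 to 104 CPM in Ctr PA, and the difference did not pass the test (log2 0.14, 95% interval -0.0016 to 0.27, edgeR adjusted p = 0.13). Ugt1a7c ran from 3.61 over 4.83 to 6.54 CPM and from 4.53 over 5.63 to 7.62 CPM (log2 0.26, 95% interval -0.04 to 0.56, edgeR adjusted p = 0.18). In batch 1 alone Ugt1a7c was 3.61 to 3.90 CPM in Ctr BSA and 5.56 to 6.18 CPM in Ctr PA (log2 0.61, edgeR adjusted p = 0.042), and in batch 2 the log2 value was -0.05. The difference between the batches in its PA response was not called in the test of that term averaged over both ASOs (-0.23, 95% interval -0.65 to 0.19).

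PA against BSA in αGlu cells repeated the comparison in the cells with the αGlu ASO, with libraries of its own. Here too 4 of the 6 tested members rose and 0 fell, where 14.4% of all genes were raised and 14.2% lowered, and the 4 were Ugt1a9, Ugt1a1, Ugt2b34 and Ugt1a6a. The median log2 fold change of the 6 was 0.32 (0.01 over all genes). By the fold rule 2 were raised, Ugt1a9 and Ugt1a1, against 0.823% of all genes.

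Ugt1a9 ran from 4.25 over 8.19 to 11.8 CPM in αGlu BSA and from 14.2 over 22.9 to 28.03 CPM in αGlu PA, without overlap, a separation that 4.17% of all genes had in this direction. The rise was 3.02-fold (log2 1.60 ± 0.17, n = 6 per group, edgeR adjusted p = 2.4e-07). Batch 1 alone gave 1.94 and batch 2 alone 1.27. Ugt1a1 ran from 0.552 over 1.11 to 2.02 CPM and from 1.79 over 3.26 to 5.29 CPM, and a single αGlu PA library, S12, reached into the αGlu BSA range. Its rise was 3.04-fold (log2 1.60 ± 0.33, edgeR adjusted p = 7.0e-04). In batch 1 alone the log2 value was 1.45 with an edgeR adjusted p of 0.070, and in batch 2 it was 1.76.

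Ugt2b34 ran from 85.5 over 109 to 125 CPM in αGlu BSA and from 116 over 150 to 171 CPM in αGlu PA (1.36-fold, log2 0.44 ± 0.07, edgeR adjusted p = 4.3e-05). The values were 0.46 and 0.43 in the single batches. The Ugt1a6a rise was small, from a median of 77.2 to 90.4 CPM with overlapping groups (62.1 to 106 and 73.4 to 105.5 CPM), and 1.14-fold in the fit (log2 0.19 ± 0.07, edgeR adjusted p = 0.032). Its call was lost without any of S4, S6, S8, S14, S18 or S20 (adjusted p up to 0.089) and in either batch alone (log2 0.27 and 0.11, adjusted p = 0.095 and 0.46). Ugt1a7c had a log2 value of 0.01 (95% interval -0.28 to 0.31) and Ugt1a6b one of -0.95 (95% interval -2.39 to 0.49), with 89 reads in αGlu BSA and 50 in αGlu PA.

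**Figure D3:**
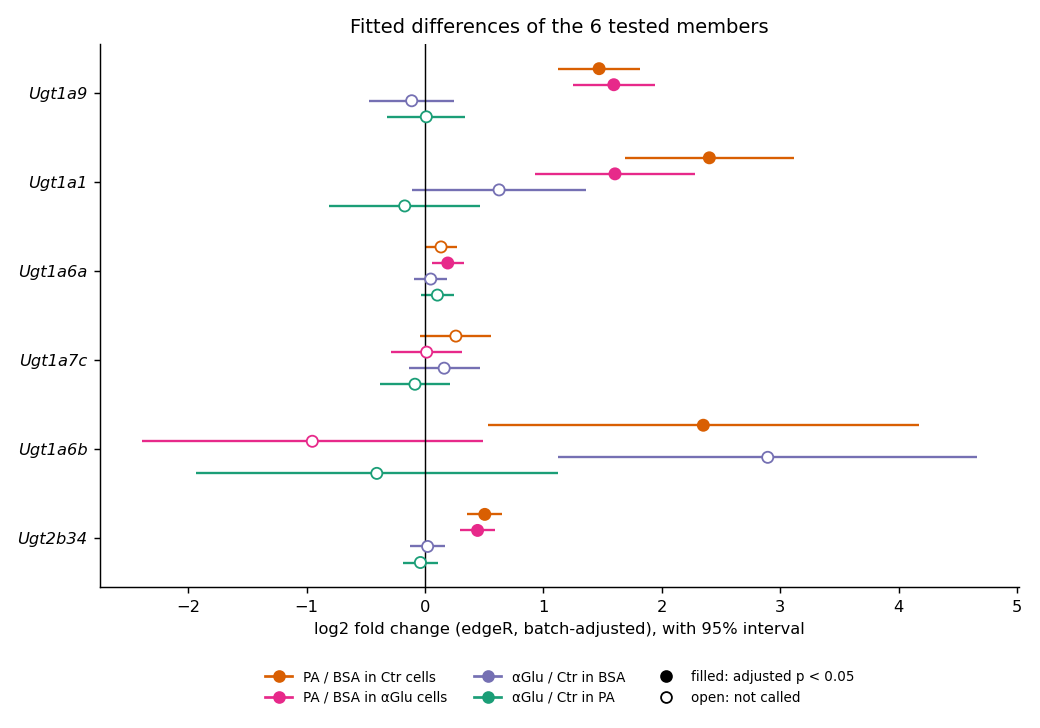
Fitted log2 fold changes of the 6 tested members with 95% intervals (horizontal axis), in the 4 comparisons between groups; filled points have an edgeR adjusted p below 0.05. Ugt1a9, Ugt1a1 and Ugt2b34 are above 0 in both PA comparisons, no αGlu comparison has a filled point, and the intervals of Ugt1a6b are the widest.

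Averaged over both ASOs, 4 members rose (Ugt1a9, Ugt1a1, Ugt2b34 and Ugt1a6a), where 45.4% of all genes were called and 23.4% raised. By the fold rule 2 were raised (Ugt1a9 and Ugt1a1), against 0.704% of all genes. The log2 values were 1.53 ± 0.12 for Ugt1a9 (edgeR adjusted p = 3.9e-10), 2.00 ± 0.24 for Ugt1a1 (2.7e-07), 0.47 ± 0.05 for Ugt2b34 (4.3e-08) and 0.16 ± 0.05 for Ugt1a6a (0.0062). The last of these was 0.23 in batch 1 and 0.10 in batch 2, where it was not called (adjusted p = 0.27). For the other 3 both batches passed the test.

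The sum of the 8 Ugt1a rows does not depend on how shared reads were divided, provided each was counted once. It was 69.4 to 115 CPM in Ctr BSA and 94.7 to 145 CPM in Ctr PA, a log2 rise of 0.36 ± 0.07 (edgeR adjusted p = 6.1e-04), and 76.5 to 126 CPM in αGlu BSA and 93.9 to 143 CPM in αGlu PA, a rise of 0.37 ± 0.07 (5.1e-04). Of the mean increase of 25.5 CPM in Ctr cells, 56.65% was in the Ugt1a9 row, 27.95% in Ugt1a6a and 13.3% in Ugt1a1. In αGlu cells the increase was 26.8 CPM, with 54.6%, 39.7% and 8.78% in the same rows. These are parts of reads and not of transcripts, since CPM is not scaled by length. The Ugt1a6a row is 1.97 times as long as that of Ugt1a9. This length merges the exons of every transcript, 4312 bases for Ugt1a6a against 2190 for Ugt1a9. The Ugt1a6a transcript whose junction is printed above has only 2265 bases. TPM may therefore set Ugt1a6a too low against Ugt1a9, and which transcript the reads came from was not tested. Per length, mean TPM in Ctr cells went from 10.1 to 28.8 for Ugt1a9 and from 48.5 to 54.8 for Ugt1a6a. For Ugt1a1 it went from 0.906 to 5.27. Without the Ugt1a6a row the sum rose by 1.10 on the log2 scale over both ASOs.

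The division of the Ugt1a counts, which are not scaled by length, shifted with PA. In Ctr BSA the Ugt1a6a row held 82.8% to 85.4% of them (median 83.8%), and in Ctr PA 70.1% to 74.1% (median 71.8%). The Ugt1a9 row went from 6.26% to 9.89% (median 9.40%) to 15.3% to 22.8% (median 19.6%), and both rows were without overlap between the groups. In αGlu cells Ugt1a6a went from a mean of 83.4% to 74.1% and Ugt1a9 from 7.90% to 18.1%. For both rows and both ASOs an exact two-sided permutation test gave p = 0.00216, the smallest that 6 against 6 libraries allow. The Ugt1a1 share went from 0.836% ± 0.520 to 3.76% ± 2.18 (SD, n = 6) in Ctr cells (exact permutation p = 0.00433) and from 1.32% ± 0.778 to 2.89% ± 1.08 in αGlu cells (exact permutation p = 0.0195). These 12 share tests, 4 for each of 3 rows, were chosen after the counts had been seen and are not independent of the rises above. The rows are also tied, since a larger share of 1 row leaves less for the others. Libraries were permuted across batches, and the p-values above are unadjusted. Adjusted over the 12 tests, the exact permutation p of the PA comparisons was 0.0065 to 0.039. The lowest unadjusted exact permutation p of the 6 between αGlu and Ctr was 0.115. The shift was present in both batches: the Ugt1a9 share rose by 8.63 and 11.6 percentage points in Ctr cells and by 11.2 and 9.20 in αGlu cells.

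**Figure D4:**
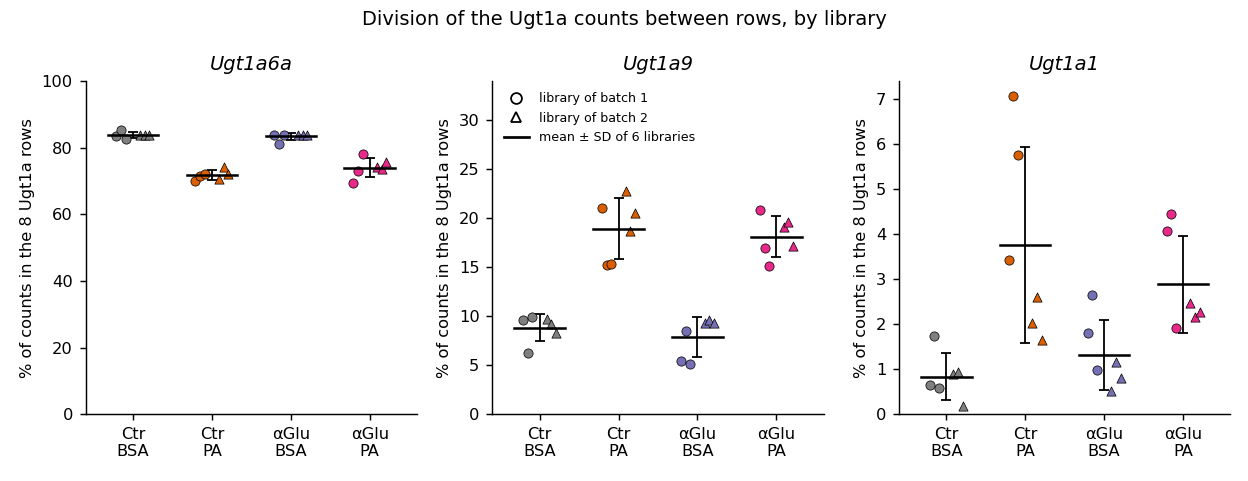
Percent of the counts in the 8 Ugt1a rows that lay in the Ugt1a6a, Ugt1a9 and Ugt1a1 rows (vertical axes, linear, from 0) in each library by group; circles are libraries of batch 1, triangles those of batch 2, and bars the mean ± SD of 6 libraries. The Ugt1a6a share is 81.2% to 85.4% in BSA and 69.5% to 78.2% in PA, and the Ugt1a9 share 5.18% to 9.89% and 15.1% to 22.8%.

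The ASO comparisons asked whether blocking the tRNA fragment alters these genes. For αGlu against Ctr in BSA 0 of the 6 tested members were called by edgeR or DESeq2, and 0 of all 15916 genes were called by edgeR (0%). At an unadjusted p below 0.05 there was 1 member, Ugt1a6b, against 2.90% of all genes, and it was also the 1 member that met the fold rule, as did 0.785% of all genes. Its counts were 0 to 5 reads per library in Ctr BSA and 4 to 23 in αGlu BSA, with a log2 value of 2.90 (95% interval 1.12 to 4.67, edgeR adjusted p = 0.65). In PA 0 members were called, also at an unadjusted p below 0.05, where 3.38% of all genes passed.

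For the abundant members the intervals of the ASO difference were narrow. In BSA they were -0.12 to 0.17 for Ugt2b34, -0.09 to 0.19 for Ugt1a6a and -0.47 to 0.25 for Ugt1a9 on the log2 scale, and in PA -0.18 to 0.11, -0.03 to 0.24 and -0.32 to 0.34. Ugt1a7c had -0.14 to 0.46 and -0.38 to 0.21. Those of Ugt1a1 were wider, -0.11 to 1.36 in BSA and -0.81 to 0.47 in PA. The Ugt1a sum had values of 0.06 ± 0.07 in BSA (edgeR adjusted p = 1.00) and 0.06 ± 0.07 in PA (0.99). Averaged over both treatments 0 members were called, by edgeR or DESeq2, where 0.239% of all genes were by edgeR. Ugt1a6b had an unadjusted p of 0.041, where 3.90% of all genes were below 0.05, and met the fold rule with 0.735% of all genes.

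The difference between both PA responses was not called for any tested member (0 of 6 by edgeR and by DESeq2, 0% of all genes). It was 0.12 for Ugt1a9 (95% interval -0.36 to 0.61), -0.06 for Ugt2b34 (-0.27 to 0.15), 0.06 for Ugt1a6a (-0.14 to 0.25) and -0.80 for Ugt1a1 (-1.77 to 0.18). Ugt1a6b, at -3.30 (-5.64 to -0.97), had an unadjusted p of 0.0074 and an edgeR adjusted p of 1.00, where 2.09% of all genes had an unadjusted p below 0.05, and met the fold rule with 0.653% of all genes.

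Batches differed in these genes as they did in many, with 26.1% of all genes higher and 25.4% lower in batch 2. Cell type markers differed as well. In batch 2, 9 of 9 beta-cell markers were higher (median log2 0.48). Lower were 8 of 8 acinar (-4.37), 6 of 7 alpha, delta and PP (-0.57) and 5 of 8 ductal markers, with 1 ductal marker higher. The part of cell composition in the batch differences of the members was not tested. Ugt1a9 (log2 0.65 ± 0.12, edgeR adjusted p = 5.4e-05) and Ugt1a6a (0.43 ± 0.05, 3.6e-08) were higher in batch 2, and Ugt2b34 was lower (-0.38 ± 0.05, 7.8e-07). None met the fold rule, as 6.38% of all genes did. For Ugt1a6a and Ugt2b34 this exceeded or neared the size of the PA change: Ugt1a6a was 59.1 to 73.4 CPM in batch 1 and 85.2 to 96.6 CPM in batch 2 of Ctr BSA, and Ugt2b34 106 to 132 and 82.1 to 92.6 CPM. Ugt1a1 was lower in batch 2 by 0.54 and missed the threshold (edgeR adjusted p = 0.057). The PA response did not differ between batches by the test for any of the 6, with 0.0628% of all genes called in this comparison, 0 members at an unadjusted p below 0.05 (6.51% of all genes) and 0 called by DESeq2.

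The 3 members that failed the filter were seen in few reads. Ugt1a2 had 116 reads in 13 libraries, of which 89 were in the 6 Ctr BSA libraries (4 to 24 per library), 14 in αGlu BSA, 6 in Ctr PA, all of them in 1 library, and 7 in αGlu PA. Ugt1a5 had 148 reads in 15 libraries, with 74 in αGlu BSA, 41 in Ctr BSA (28 of them in S21), 23 in Ctr PA and 10 in αGlu PA. Ugt1a10 had 96 reads in 12 libraries, 51 of them in αGlu BSA. These rows were not tested in the filtered fit. Without the filter all 9 members were tested, and some of these rows were called lower in PA. Ugt1a2 was called lower in Ctr PA than in Ctr BSA (edgeR adjusted p = 0.0054), where 8.33% of all genes were lowered in that fit, and averaged over both ASOs Ugt1a2 and Ugt1a5 were called lower (edgeR adjusted p = 0.010 and 0.047), with 13.6% of all genes. In αGlu cells alone neither was (edgeR adjusted p = 0.56 and 0.055). In the fit of batch 1 alone, where Ugt1a2 passed the filter, it was also called lower in Ctr PA (edgeR adjusted p = 0.019). With so few reads, most of those of Ugt1a5 in Ctr BSA from S21, no fold is given. Ugt1a8, the remaining gene of the locus and no member, had 8 reads in 2 libraries.

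**Figure D5:**
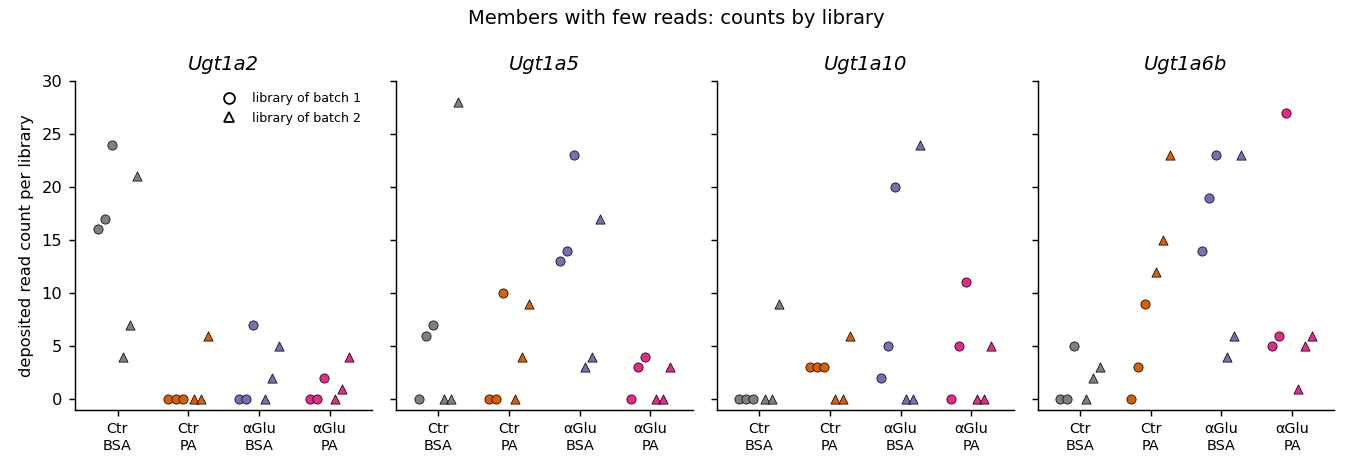
Deposited read counts (vertical axis, linear) of the 3 members below the filter and of Ugt1a6b in each library by group; circles are libraries of batch 1 and triangles those of batch 2. Ugt1a2 has 4 to 24 reads in every Ctr BSA library and at most 7 in any other, and the remaining rows scatter between 0 and 28 reads within a group.

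Around these enzymes, gene lists of the pathway were read in the PA response averaged over both ASOs, beside 45.4% of all genes called, 23.4% raised and a median of 0.01. Of 12 other UDP-glycosyltransferases 3 were tested and 0 called by edgeR, with 1 at an unadjusted p below 0.05. The leading one, Ugt2b35, stood at 7.22 CPM in Ctr BSA and 7.77 CPM in Ctr PA (log2 0.10 ± 0.16). Of 11 genes listed around the supply of UDP-glucuronate, not all of which make it, 2 rose and 3 fell, with a median of 0.05. Slc35b1, of the nucleotide sugar transporter family, rose by 0.27 ± 0.03 and Pgm1, a phosphoglucomutase, by 0.25 ± 0.04, while the hexokinases Hk1 and Hk2 changed by -0.64 ± 0.12 and -0.98 ± 0.18. Ugdh, which makes UDP-glucuronate and is named here for that role after its value was seen, stood at 88.9 CPM in Ctr BSA and 91.0 CPM in Ctr PA and was not called (0.04 ± 0.05, edgeR adjusted p = 0.61).

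Of 8 genes of deconjugation and efflux 2 rose and 4 fell, with a median of -0.18. Gusb, the lysosomal beta-glucuronidase that removes glucuronic acid, rose by 0.34 ± 0.05, and the conjugate exporters Abcc2, Abcc1 and Abcc5 changed by -0.42 ± 0.04, -0.22 ± 0.03 and -0.14 ± 0.03. Of 4 genes of bilirubin formation Hmox1, the heme oxygenase, rose by 0.50 ± 0.09 and Blvra, a biliverdin reductase, changed by -0.27 ± 0.08. The median of these 4 was -0.03.

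Of 15 receptors and factors known to act on Ugt genes 12 were tested, 2 rose and 6 fell, with a median of -0.09. Pparg, a fatty acid receptor, rose by 0.61 ± 0.06 and Nr1h4, the bile acid receptor, by 0.34 ± 0.05. Nfe2l2, the factor of the antioxidant response, changed by -0.34 ± 0.05 and Arnt, the partner of the dioxin receptor, by -0.14 ± 0.03. Of the 7 targets of the dioxin receptor 6 were tested, and 1 fell, Cyp1b1 (-1.35 ± 0.53, edgeR adjusted p = 0.041). Among 26 other conjugation enzymes, most of which attach sulfate, glutathione, methyl or acetyl groups, 23 were tested, 12 rose and 2 fell, with a median of 0.22. Sult1c2, a sulfotransferase, rose by 1.12 ± 0.08, and the glutathione transferases Gstt2 and Gstt1 by 0.76 ± 0.07 and 0.38 ± 0.06.

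Ugt2b34 had the highest mean count of the members. Over the 24 libraries, after the batch means had been subtracted from log2 CPM, the 5 genes most like it by Spearman correlation were Krcc1 (0.962), Slc35f5 (0.944), Eif5 (0.944), Pnrc2 (0.936) and Idh1 (0.933). In the same measure Ugt2b34 stood at 0.793 with Ugt1a9, 0.752 with Ugt1a1 and 0.560 with Ugt1a6a. All these points share the PA treatment and the library scaling, and the values are a description.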

How the data were processed

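Per the labels and the study's methods, total RNA of dispersed mouse islet cells was prepared with the Illumina Stranded mRNA kit and sequenced on an AVITI instrument. The authors used QIAGEN's RNA-seq Analysis Portal to make 1 table, and the submitters' processing notes name GRCm38; no aligner, and no division of reads between shared exons, is named in these sources. The deposited table holds read counts per gene, and beside them RPKM, TPM and CPM values made by the authors. Counts served for tests, TPM for levels between genes, RPKM as an alternative to TPM, and the 24 CPM columns were not used. An empty cell was read as 0. The table has 1 row without a gene name, which holds no values.

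Groups and batches were taken from the labels. Counts were scaled by TMM and filtered with filterByExpr (minimum count 10), which left 15916 genes with 99.95% of the counts, and fitted with edgeR 4.0.16 in R 4.3.3 (quasi-likelihood F-test, two-sided, group and batch terms, 24 libraries, Benjamini-Hochberg over all genes tested, threshold 0.05). A standard error is the log2 fold change over the root of F, and a 95% interval uses the degrees of freedom of the test. Fits were tested on simulated data. Per the study's reporting summary, replicates of primary cells are preparations of different animals, and the groups within 1 replicate come from 1 animal. The labels do not say which libraries share an animal, so the fit treats libraries as independent and p-values measure the spread between them, and reads without molecular identifiers make counting error alone too small. Alternatives were DESeq2 1.42.0, upper-quartile scaling, other filters, no batch term, each batch alone, only the groups compared, a fold above 2 with an unadjusted p (a reading of the study's threshold), the summed Ugt1a rows and the omission of each library. Members and gene lists were chosen with earlier results of these data known. All 9 members are named; of each list the up to 4 genes of smallest p in the averaged PA response are named, except 1 gene that is not reported here, and for the member of the highest mean count the 5 most correlated genes. Gene models came from GENCODE vM21 and promoters from RefSeq; motifs were searched by exact match on both strands, and first exons and promoter windows compared by global alignment. No authors' fold changes or p-values were used.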

Additional observations from a re-analysis of the deposited data

Results flagged for a closer look

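Of 40 groups of 6 libraries examined (9 members and the Ugt1a sum in 4 groups), 4 held a library whose gap to the next, relative to the range of its group, exceeded Dixon's 95% critical value; chance flags about 1 in 20. All 4 were rows with few reads. Ugt1a6b stood at 0.322 CPM in S1 of Ctr BSA, with the next library at 0.106 CPM and a gap of 0.671 of the range, and at 0.824 CPM in S4 of αGlu PA, with the next at 0.215 CPM and a gap of 0.775. Ugt1a10 stood at 0.355 CPM in S13 of Ctr BSA and Ugt1a2 at 0.238 CPM in S19 of Ctr PA, each as the one library of its group with any read. No difference between both PA responses or between the batches' PA responses was called for a member.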

How the results depend on the processing

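Ugt1a9 and Ugt2b34 kept their direction and their call in both PA comparisons under every scaling, filter, model, batch and left-out library run, with log2 values of 1.27 to 1.94 and 0.38 to 0.62, and Ugt1a1 did so except for αGlu cells of batch 1. Ugt2b34 did not reach the fold above 2. The Ugt1a sum ranged from 0.29 to 0.43 across scaling, filters and batches, and was 1.10 without Ugt1a6a. Counts of members called moved as follows. With the Ugt1a rows summed, 2 rows were tested and 2 called in Ctr cells, in αGlu cells and on average. With the fold rule, 2 were called in αGlu cells, 2 on average, 0 between batches, and 1, Ugt1a6b, each for αGlu in BSA, for αGlu averaged and for the difference of the responses. In batch 1 alone 2 of 8 were called in αGlu cells and 5 of 8 in Ctr cells. There Ugt1a2 and Ugt1a5 also passed the filter. Ugt1a2 was called lower in Ctr PA (edgeR adjusted p = 0.019) and averaged over both ASOs (0.019). Without the filter 6 of 9 were called on average, 4 raised and 2 lowered, and in Ctr cells 3 raised and 1 lowered. The cause was not tested. When libraries were left out in turn, counts ran from 3 to 4 in Ctr cells, 3 to 5 in αGlu cells, 4 to 5 on average and 3 to 4 between batches, and were 0 to 0 for αGlu in BSA, in PA and averaged, for the difference of the responses and for that between batches; the Ugt1a sum ran from 0.35 to 0.39. The PA call of Ugt1a6a was lost without the batch term (0.15, edgeR adjusted p = 0.26), and that of Ugt1a6b without the batch term or the filter (adjusted p = 0.080 and 0.054). Ugt1a1 was called lower in batch 2 by DESeq2 (-0.54, adjusted p = 0.038), as without any of S1, S9, S10, S12, S13 or S17. No paired analysis was possible because each library has a number of its own and the labels do not say which libraries share an animal. Depth limits the rows of Ugt1a2, Ugt1a5, Ugt1a6b and Ugt1a10, with at most 28 reads in a library.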

Other observations

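The promoter windows of Ugt1a9 and Ugt1a10 were identical at 84.7% of 274 aligned bases, where the other pairs of members reached 68.9% to 77.9% over 27 to 233 aligned bases.  Their rows lay far apart in level, at 10.1 and 0.0726 TPM in Ctr BSA and 28.8 and 0.112 TPM in Ctr PA, although their first exons are also alike. Of these, the Ugt1a9 window holds the nuclear receptor core motif AGGTCA, at -201, as do 16.3% of all windows. The Ugt1a10 window holds 2 HNF1 core motifs and that of Ugt1a9 holds 1. The part of such motifs in the levels was not tested.

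Chosen after their values had been seen, the genes most like Ugt1a9 over the 24 libraries, with batch means subtracted, were Iapp (Spearman 0.910), Ctsa (0.905), Atp6ap1 (0.898), Bscl2 (0.891) and Slc17a9 (0.890), and those most like Ugt1a1 were Pdzd11 (0.919) and Pon3 (0.897). All had a positive log2 value in the averaged PA response (0.21 to 0.62), where 50.9% of all genes were positive. They were picked for likeness to members that rise in PA, so this is no separate result. Between members, Ugt1a9 stood at 0.722 with Ugt1a6a and at 0.207 with Ugt1a7c. These correlations are descriptions over libraries that share the PA treatment.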
